A study of Mus musculus with 8 samples.

Results

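The dystrophin and sarcoglycan complex was followed through 8 genes: Dmd, Sgca, Sgcb, Sgcd, Dag1, Sntb1, Dtna and Sspn. They were chosen by name, as the probe sets that the array annotation gives to one of these symbols alone. These are 28 of 45101 probe sets and 8 of 18193 genes with a probe set. All 8 passed the filter on low levels, and 13586 genes were tested. Tissue labelled as the rear portion of the palate was taken from BALB/c pups on postnatal day 1, with no mutation or transgene in any group. The dams had worn an osmotic minipump, a small reservoir placed under the skin that delivers fluid steadily. It held physiological saline in the control group, or nicotine to give 1.5, 3.0 or 4.5 mg/kg/day. There were 2 Affymetrix arrays for each of these 4 treatments, titled as biological replicates. How many pups or litters stand behind an array was not found in the labels, so p-values measure only the spread between these samples, which may be technical.

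The complex spans the membrane of the muscle fibre. Dystrophin holds the actin skeleton inside, dystroglycan grips laminin in the matrix outside, and the sarcoglycans with sarcospan brace dystroglycan in the membrane. Dystrobrevin and the syntrophins sit on dystrophin inside the fibre and bring in signalling proteins. Several palate muscles insert in the rear of the palate, and loss of single parts of the complex causes muscular dystrophy.

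The promoters of the 2 members that passed the test over the doses, Sgca and Sspn, are shown with those of Dmd. Among the windows available here, Sspn and Dmd each have an upstream and a downstream start, which need not be all their starts. Both are given, because the starts differ in sequence while the gene was read as 1 level. The sequences are from RefSeq (GRCm38.p6) and run 5′ to 3′ from 250 bases before the start to 50 bases after it. Capitals mark an E-box (CANNTG), the core that MyoD-family factors bind, a CArG box bound by SRF, or a MEF2 site.
Sgca, chr11:94976278-94976577, minus strand: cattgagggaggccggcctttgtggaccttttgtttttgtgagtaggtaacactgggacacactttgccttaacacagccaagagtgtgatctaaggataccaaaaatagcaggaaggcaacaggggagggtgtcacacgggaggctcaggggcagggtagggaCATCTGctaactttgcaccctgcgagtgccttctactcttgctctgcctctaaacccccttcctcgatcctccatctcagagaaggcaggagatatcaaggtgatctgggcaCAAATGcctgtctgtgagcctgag
Sspn upstream start, chr6:145931623-145931922, plus strand: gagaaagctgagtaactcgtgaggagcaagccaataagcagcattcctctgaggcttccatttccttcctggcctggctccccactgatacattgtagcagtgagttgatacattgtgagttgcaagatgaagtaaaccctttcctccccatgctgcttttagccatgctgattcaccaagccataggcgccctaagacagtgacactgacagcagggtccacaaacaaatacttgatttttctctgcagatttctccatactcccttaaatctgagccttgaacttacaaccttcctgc
Sspn downstream start, chr6:145933872-145934171, plus strand: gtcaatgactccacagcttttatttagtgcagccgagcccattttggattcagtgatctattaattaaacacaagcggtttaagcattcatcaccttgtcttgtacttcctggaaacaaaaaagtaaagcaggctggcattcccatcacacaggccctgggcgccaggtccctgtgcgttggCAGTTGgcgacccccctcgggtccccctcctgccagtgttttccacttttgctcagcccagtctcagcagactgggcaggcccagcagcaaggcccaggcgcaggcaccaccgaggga
Dmd upstream start, chrX:82948620-82948919, plus strand: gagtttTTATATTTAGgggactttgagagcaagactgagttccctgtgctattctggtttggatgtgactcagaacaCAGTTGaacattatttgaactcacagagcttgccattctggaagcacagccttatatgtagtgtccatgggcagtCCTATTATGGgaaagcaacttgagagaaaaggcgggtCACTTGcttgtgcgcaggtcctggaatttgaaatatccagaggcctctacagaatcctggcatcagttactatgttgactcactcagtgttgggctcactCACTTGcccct
Dmd downstream start, chrX:85048045-85048344, plus strand: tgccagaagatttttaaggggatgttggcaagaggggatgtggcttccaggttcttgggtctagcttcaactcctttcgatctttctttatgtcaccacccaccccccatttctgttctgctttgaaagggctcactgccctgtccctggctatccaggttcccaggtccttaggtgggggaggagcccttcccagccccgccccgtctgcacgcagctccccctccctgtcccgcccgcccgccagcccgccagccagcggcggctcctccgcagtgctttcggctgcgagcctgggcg

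Both strands were searched. The Sgca window held E-boxes at -86 (CATCTG) and 27 (CAAATG) and the downstream Sspn window 1 at -68 (CAGTTG), counted from the start. The upstream Sspn window held none of the motifs searched. The upstream Dmd window held 3 E-boxes, a CArG box at -98 and a MEF2 site at -244, and the downstream Dmd window, 2099425 bases away, held none of them. Its GC content was 62.7%, against 45.7% upstream. An E-box was in 6 of 9 windows found for 6 members and in 72.3% of all 32851 windows. The Dag1 windows overlap, and the same CACTTG was counted in each. A CArG box was in 1 of the 9 and in 1.63% of all, and a MEF2 site in 1 of the 9 and in 3.19% of all. These are matches of letters and were not set against any binding data. Sntb1 and Dtna had no window in the table.

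Before the members, the arrays themselves differed in tissue content. The marker lists named here were chosen with earlier results of these data known. The 10 stomach genes with a probe set had a median log2 level of 8.22 and 8.49 in the saline arrays and of 4.70 to 4.85 in the nicotine arrays. Of the 9 stomach genes tested, 8 passed the test as lower, as did 7 of 8 intestine genes and 5 of 8 liver genes. The liver count became 1 without saline replicate 2, 3 without saline replicate 1 or nicotine 4.5 replicate 2, 8 without nicotine 1.5 replicate 2, and 2 without either array of 3.0 or replicate 1 of 4.5. Liver genes stood at a median of 10.53 and 11.86 in saline and at 10.57 in replicate 2 of nicotine 1.5, against 4.43 to 5.19 elsewhere. The alternative used below without both arrays highest in liver genes dropped, by this median, saline replicate 2 and nicotine 1.5 replicate 2. Saline replicate 1, which it kept, summed to 16866 in liver genes, against 16801 in nicotine 1.5 replicate 2. That alternative is thus not free of liver signal, and it leaves 1 array in each of these 2 groups. Smooth muscle genes summed to intensities of 15308 and 7513 in saline and 4160 to 8248 with nicotine. Skeletal muscle fibre genes summed to 56789 and 40639 in saline and 63947 to 86485 with nicotine. Tissue that the palate label does not name was not limited to saline. Lung genes summed to 10585 in replicate 2 of nicotine 1.5, to 12698 and 3735 at 3.0 and to 1242 and 1452 at 4.5 mg/kg/day, against 117 and 429 in saline and 93.9 in the remaining nicotine array. Cartilage genes summed to 9362 in replicate 1 of nicotine 1.5, against 263 to 725 elsewhere. Kidney genes summed to 2309 in saline replicate 2, against 84.9 to 192 elsewhere. Neuron genes summed to 3833 in saline replicate 1, against 178 to 923 elsewhere. Fat cell genes summed to 7696 and 3186 in saline and to 5264 to 22535 with nicotine, with 7 of 7 positive over the doses. Heart muscle genes were positive in 14 of 14, with a median difference of 0.99, and endothelium genes in 8 of 8, with 0.79. The heart muscle median level was 9.49 in replicate 2 of nicotine 1.5 and 5.05 to 6.41 in the other nicotine arrays. It was 5.07 and 4.97 in saline. Epithelium genes summed to 7710 and 5165 in saline and to 618 to 4034 with nicotine, with 2 of 9 positive. Of these 9, 6 passed the test as lower, with a median difference of -2.62, and the count passing was 3 to 7 over 18 alternatives. The actin 3′ to 5′ signal ratio, which rises as RNA degrades, was 1.74 and 1.65 in saline and 0.954 to 1.39 with nicotine. The part of tissue content and of RNA quality in any difference given here was not tested, and in bulk tissue fewer muscle cells and less RNA per cell cannot be told apart. Across all genes tested, which are not independent replicates, r between the replicate arrays was 0.891 for saline, 0.898 for 1.5, 0.982 for 3.0 and 0.954 for 4.5 mg/kg/day.

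**Figure D1:**
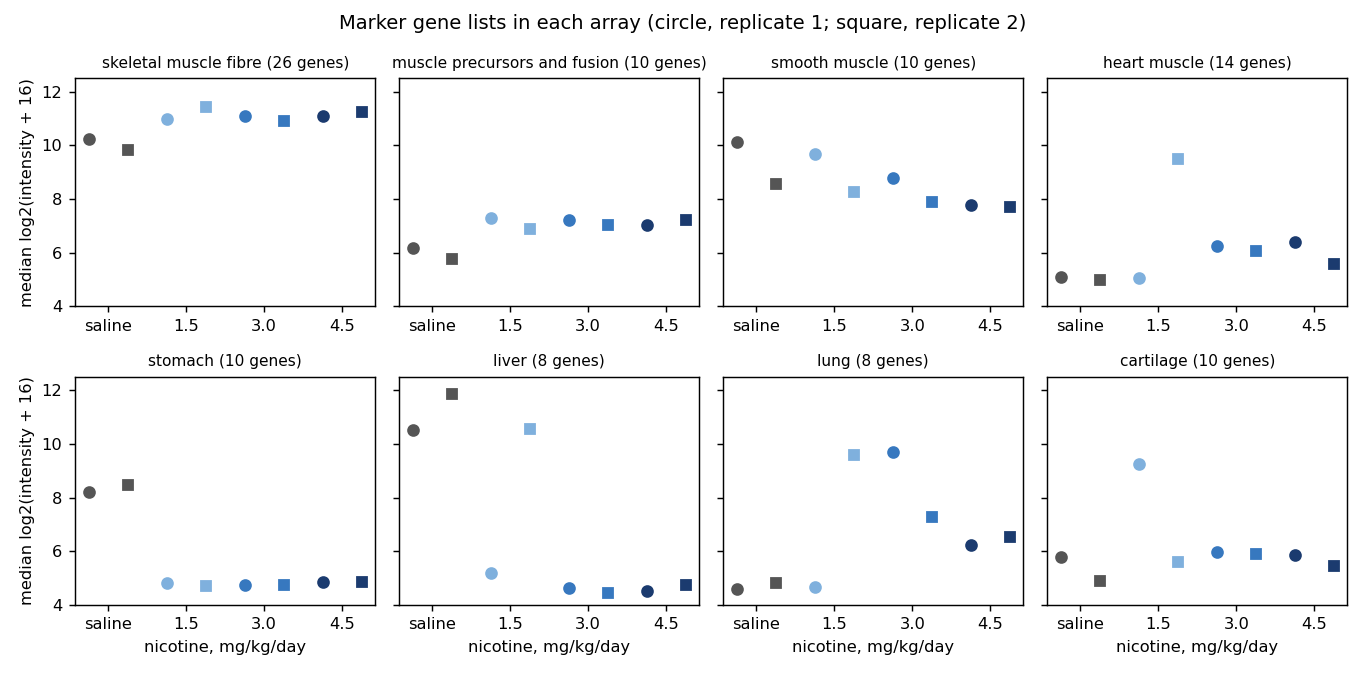
Median log2 level, per array, of 8 marker lists for muscle types, other organs and cartilage (y axis, log2 of intensity plus 16, quantile normalized) by nicotine dose (x axis, mg/kg/day), with replicate 1 as a circle and replicate 2 as a square. Stomach genes stand at 8.22 and 8.49 in the saline arrays and at no more than 4.85 in the 6 nicotine arrays, while fibre genes are lowest in the saline arrays at 10.24 and 9.82.

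The sarcoglycans form the membrane subcomplex that dystroglycan leans on. Sgca encodes alpha-sarcoglycan, the member most restricted to striated muscle. Its intensity was 77.7 and 63.3 in the saline arrays, 238 and 216 at nicotine 1.5, 243 and 208 at 3.0, and 235 and 349 at 4.5 mg/kg/day. All 6 nicotine arrays lay above both saline arrays, and replicate 2 of 4.5 was the highest. Over the 3 doses together Sgca rose by 1.72 ± 0.20 (SE) on the log2 scale, a fold of 3.30, with a limma adjusted p of 0.00537 over all genes tested. A log2 change here is on the scale of log2(intensity + 16), which shrinks the change of genes near background.

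Sgcb encodes beta-sarcoglycan, which is made in many tissues. Its intensities were 421 and 184 with saline, 452 and 486 at 1.5, 571 and 509 at 3.0 and 505 and 692 at 4.5 mg/kg/day. Every nicotine array again lay above both saline arrays, but the saline arrays were 1.16 log2 units apart, more than the 0.527 units across the nicotine arrays. The difference over the doses was 0.95 ± 0.31 with a limma adjusted p of 0.0920, which did not pass. It passed only without saline replicate 1, at 1.53 and an adjusted p of 0.0145 in limma.

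Sgcd, for delta-sarcoglycan, which smooth muscle shares with striated muscle, was near the filter on low levels. Intensities were 30.4 and 21.5 in saline, 27.2 and 27.8 at 1.5, 27.1 and 32.3 at 3.0, and 16.4 and 24.1 at 4.5 mg/kg/day. The groups overlapped. The difference over the doses was 0.070 ± 0.15 (95% interval -0.29 to 0.43, limma adjusted p 0.780), and its sign turned with values as deposited, to -0.0071.

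Sspn encodes sarcospan, the small membrane protein bound to the sarcoglycans. Its intensity was 345 and 181 in saline, 465 and 674 at 1.5, 733 and 627 at 3.0, and 611 and 667 at 4.5 mg/kg/day. No nicotine array overlapped with saline, and the saline arrays were 0.90 log2 units apart. Sspn rose over the doses by 1.33 ± 0.26, a fold of 2.51 (limma adjusted p 0.0268). The call was lost without saline replicate 2 (0.88, adjusted p 0.0802), without either array of nicotine 3.0 (0.0856 and 0.0767) or of 4.5 (0.0606 and 0.0591), and without both arrays highest in liver genes (0.81, 0.0616), all by limma. It held under the other 12 of 18 alternatives.

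**Figure D2:**
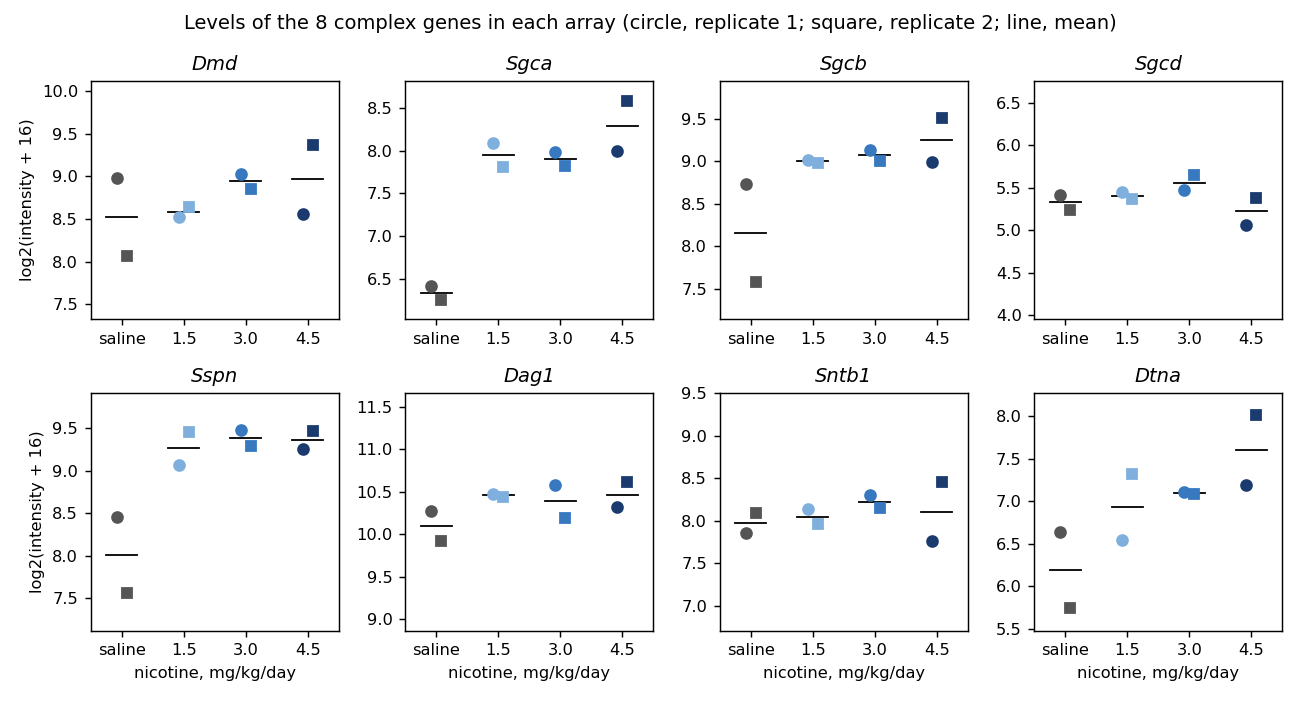
Level of each member per array (y axis, log2 of intensity plus 16, quantile normalized; panels start at different levels and span the same range) by nicotine dose (x axis, mg/kg/day), with replicate 1 as a circle, replicate 2 as a square and their mean as a line. All 6 nicotine arrays lie above both saline arrays for Sgca, Sgcb and Sspn, and the groups overlap for the other 5.

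Dag1 encodes dystroglycan, the laminin receptor of the complex, found in most tissues. Intensities were 1208 and 983 in saline, 1179 and 1357 at 1.5, 1707 and 1212 at 3.0, and 1368 and 1476 at 4.5 mg/kg/day. As deposited, 5 of 6 nicotine arrays lay above both saline arrays. The difference was 0.34 ± 0.18 (interval -0.084 to 0.77, limma adjusted p 0.242).

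Dmd encodes dystrophin itself. Intensities were 503 and 268 in saline, 325 and 384 at 1.5, 527 and 451 at 3.0, and 364 and 624 at 4.5 mg/kg/day. Only 2 of the 6 nicotine arrays exceeded both saline arrays, and none was below both. The difference over the doses was 0.30 ± 0.30 (interval -0.41 to 1.02, limma adjusted p 0.524), and it was -0.17 without both arrays highest in liver genes.

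Dtna encodes alpha-dystrobrevin, a dystrophin relative on the inner face. Intensities were 93.8 and 38.5 in saline, 73.6 and 150 at 1.5, 122 and 117 at 3.0, and 123 and 228 at 4.5 mg/kg/day. The first array of 1.5 fell between the saline arrays and the other 5 above them. The difference was 1.02 ± 0.34 (limma adjusted p 0.102).

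Sntb1 encodes beta-1 syntrophin, an adaptor that binds dystrophin and dystrobrevin and is not confined to muscle. Its intensities were 230 and 272 in saline, 246 and 240 at 1.5, 310 and 267 at 3.0, and 195 and 316 at 4.5 mg/kg/day. The groups overlapped, with the lowest and the highest value both at 4.5. The difference was 0.16 ± 0.21 (interval -0.35 to 0.66, limma adjusted p 0.646).

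Counted together, 2 of the 8 members passed the limma test over the doses, both higher, beside 10.2% of all genes tested, of which 646 were higher and 734 lower. Over the 18 alternatives the member count ranged from 1 to 3, while the 1380 calls over all genes ranged from 349 to 1542. Both counts thus depended on the arrays and settings kept. All 8 differences were positive, with a median of 0.65, beside 55.9% positive and a median of 0.066 over all genes tested. Saline replicate 2 was the lowest of the 8 arrays in 6 of 8 members, as it was in 22.4% of all genes tested. It lay below saline replicate 1 in 7 of 8 members, beside 51.3% of all genes. Nicotine 4.5 replicate 2 was the highest in 6 of 8, beside 13.3%. After quantile normalization the groups did not overlap, with nicotine above, in 3 members and in 16.8% of all genes.

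Dose by dose, every comparison used the same 2 saline arrays, so the comparisons are not independent. Sgca was 1.62 ± 0.24 above saline at 1.5 (limma adjusted p 0.0280), 1.57 ± 0.24 at 3.0 (0.0232) and 1.97 ± 0.24 at 4.5 mg/kg/day (0.00839). It was the 1 member of 8 to pass at each dose, beside 2.48% of all genes at 1.5, 3.72% at 3.0 and 6.87% at 4.5. The Sgca call at 1.5 held under 11 of 18 alternatives. It was lost without saline replicate 2, nicotine 1.5 replicate 1, either array of 3.0, or both arrays highest in liver genes. It was also lost with array weights and with the replicate block. At 3.0 it was lost without saline replicate 2 (0.0582) and without either array of 3.0 (0.187 and 0.175), whereas at 4.5 it held under all 18 alternatives.

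Sspn was 1.25, 1.37 and 1.35 ± 0.31 above saline at the 3 doses in order, with limma adjusted p of 0.0905, 0.0646 and 0.0514. Dtna was 0.74, 0.91 and 1.41 ± 0.42 above saline, and Sgcb 0.85, 0.92 and 1.10 ± 0.38. Dmd was 0.053, 0.41 and 0.44 ± 0.37, Dag1 0.36, 0.29 and 0.37 ± 0.22, Sntb1 0.078, 0.25 and 0.13 ± 0.26, and Sgcd 0.082, 0.23 and -0.10 ± 0.19. None of these 7 members passed at any dose in the fit as reported. Without saline replicate 1, Sgcb was 1.42, 1.49 and 1.68 and Sspn 1.70, 1.82 and 1.80 above saline at the 3 doses. Without saline replicate 2, Sgcb was 0.27, 0.34 and 0.52 above it, and Sspn 0.92 at 3.0 and 0.90 at 4.5. The members' median difference was 0.55, 0.66 and 0.77 at the 3 doses, beside 0.042, 0.061 and 0.063 over all genes tested.

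A slope of log2 level on dose was positive in 7 of 8 members. For Sgca it was 0.39 ± 0.05 per mg/kg/day (limma adjusted p 0.0106), which was the 1 slope of 8 that passed, beside 6.94% of all genes. Sspn had a slope of 0.28 ± 0.07 (0.0542), Dtna 0.29 ± 0.09 (0.0889) and Sgcb 0.22 ± 0.08 (0.120). The slope includes the saline arrays, so it does not show a gradient among the doses. Between the doses no member passed in limma, nor did any gene: 0% of the 13586 genes for 3.0 against 1.5, 0% for 4.5 against 3.0 and 0% for 4.5 against 1.5. Left-out arrays gave no member a call there, though without nicotine 1.5 replicate 1 or 2 limma called 15 or 35 of all genes for 3.0 against 1.5 and 13 or 31 for 4.5 against 1.5. Without both arrays highest in liver genes these counts were 201 and 190, again with no member. At an unadjusted p under 0.05 the count was 0 members in each, beside 10.8%, 3.94% and 7.09% of all genes. Sgca at 4.5 against 3.0 differed by 0.39, with a 95% interval of -0.18 to 0.96.

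**Figure D3:**
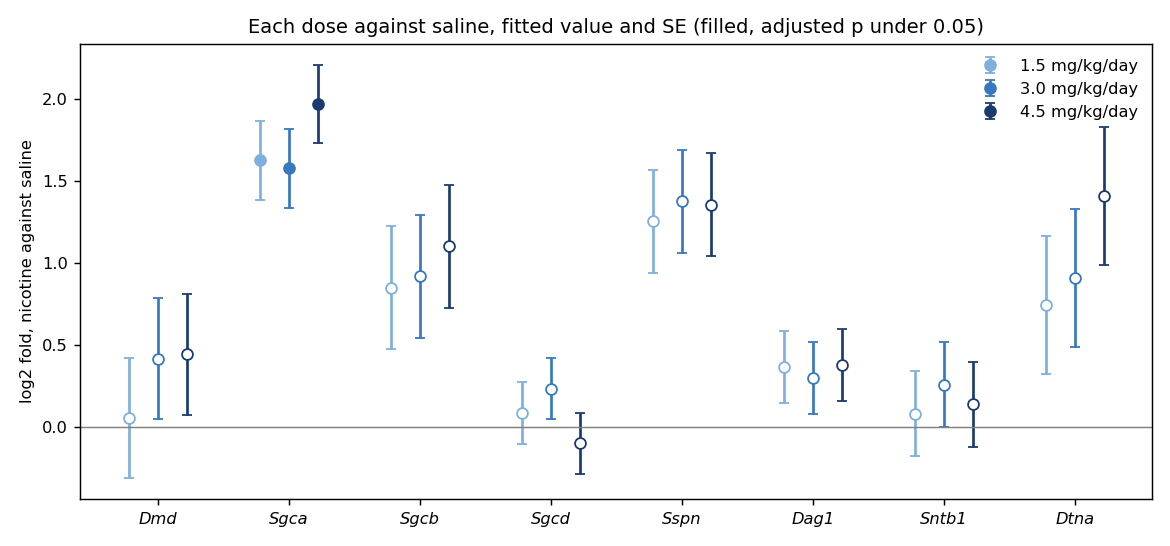
Difference from saline at each dose (y axis, log2 fold with bars of 1 standard error) for the 8 members (x axis), all against the same 2 saline arrays, filled where the adjusted p is under 0.05. Sgca stands at 1.62, 1.57 and 1.97, Sspn at 1.25 to 1.37, and Sgcd within 0.23 of zero.

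Of the 28 member probe sets, 25 passed the level filter; the 3 below it belonged to Dmd, Sntb1 and Dtna. Fitted over all probe sets, 5 of the 25 passed the limma test over the doses, all higher, beside 11.1% of 23352 probe sets, and 24 of 25 differences were positive. Without saline replicate 2, or without either array of nicotine 3.0, only 1 passed, and 3 passed without nicotine 4.5 replicate 2.

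For Sgcb and Dtna a probe set other than the one that stood for the gene passed. Sgcb 1419667_at read 141 and 83.1 in saline and 204 to 318 with nicotine, a rise of 1.14 ± 0.23 (limma adjusted p 0.0285). Dtna 1419223_a_at read 52.6 and 30.7 in saline and 81.0 to 209 with nicotine, a rise of 1.38 ± 0.25 (0.0197), and Dtna 1426066_a_at rose by 0.73 ± 0.17 (0.0397). Dtna 1429768_at differed by 0.0098 ± 0.25, so the probe sets of Dtna disagreed.

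Dtna 1456069_at read 149 and 1429768_at 51.3 in nicotine 1.5 replicate 2, the highest of their 8 arrays. Dmd 1443315_at read 46.0 there and 25.5 in the other array of that dose, against 8.89 to 15.8 in the remaining 6. That array also held the highest heart muscle median, 9.49 against 4.97 to 6.41 elsewhere, and its part in these readings was not tested. These readings were singled out after their values were seen. Among those of Dag1, 1426779_x_at differed by -0.048 ± 0.22 while the other 3 probe sets lay between 0.26 and 0.34.

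**Figure D4:**
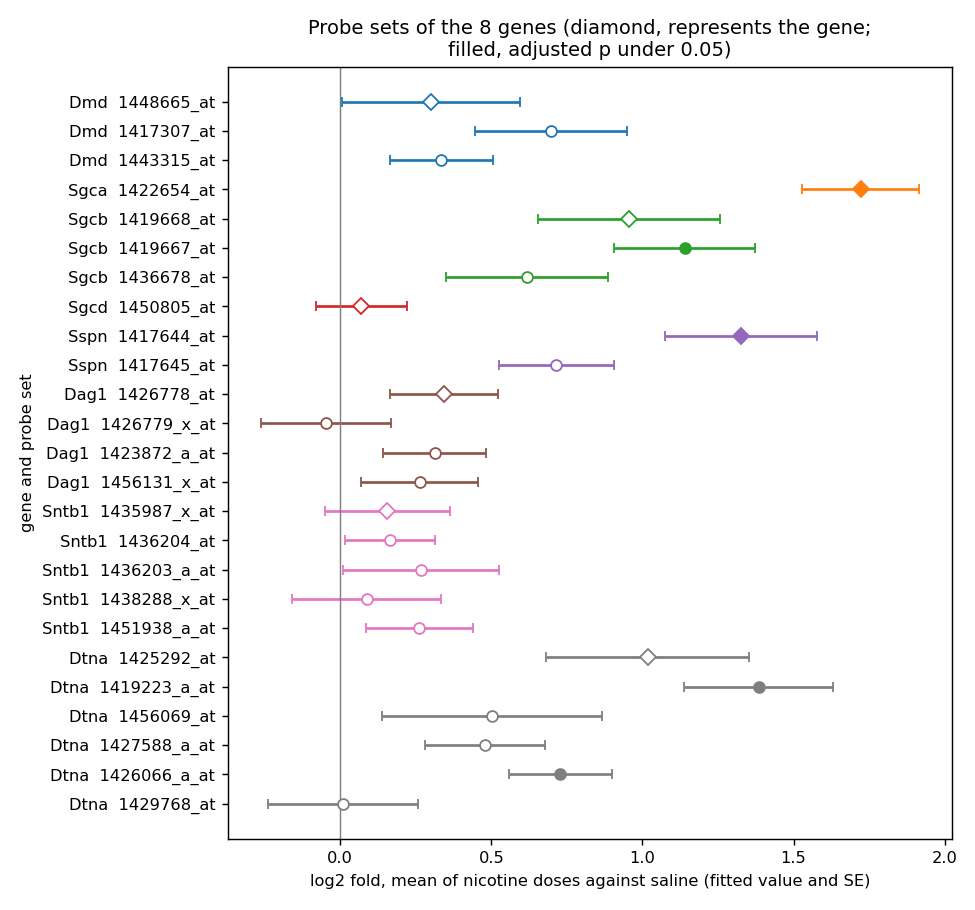
Difference over the doses for each member probe set above the level filter (x axis, log2 fold with bars of 1 standard error), grouped by gene on the y axis, filled where the adjusted p is under 0.05 and a diamond where the probe set stands for the gene. The probe sets of Dtna spread from 0.0098 to 1.38, and those of Sntb1 stay between 0.087 and 0.27.

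Since fibre signal differed between the groups, each member was also read against the median of 26 skeletal muscle fibre genes in the same array. That median was 10.24 and 9.82 in saline and 10.90 to 11.42 with nicotine. On this ratio Sgca was 0.62 ± 0.27 and Sspn 0.23 ± 0.24 above their saline value (limma adjusted p 0.0575 and 0.393). Dtna and Sgcb lay at -0.081 ± 0.28 and -0.14 ± 0.28 (0.792 and 0.639). Sgcd, Sntb1, Dmd and Dag1 were lower relative to fibre genes, by -1.03 ± 0.26, -0.94 ± 0.29, -0.80 ± 0.28 and -0.75 ± 0.24.

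These 4 of 8 passed with limma adjusted p from 0.00592 to 0.0236, beside 77.9% of all genes tested, of which 10552 were lower, so lower is the common result on this ratio. Dmd passed as lower in 13 of 20 alternatives, Dag1 and Sntb1 in 16 of 20 each and Sgcd in 17 of 19. The count of 4 lower members fell when some single arrays were left out. It became 3 with array weights or with the level filter at the 60th percentile, where Sgcd was not tested, and 5 with the mean of a gene's probe sets. It became 1 with the mean of the fibre genes, where Sgcd remained, and 0 with the list less Ryr1, Cacna1s, Myoz1 and Pygm, both chosen after seeing the data. Sgca passed as higher than the fibre genes in 5 of 20 alternatives. These were the added constant of 1 (0.83, adjusted p 0.0336), no level filter (0.62, 0.0482), the fibre mean (0.80, 0.0434), without nicotine 1.5 replicate 2 (0.74, 0.0218), and without both arrays highest in liver genes (0.87, 0.0270). The ratio shows unequal change of a member and the fibre genes, not that either stayed constant.

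**Figure D5:**
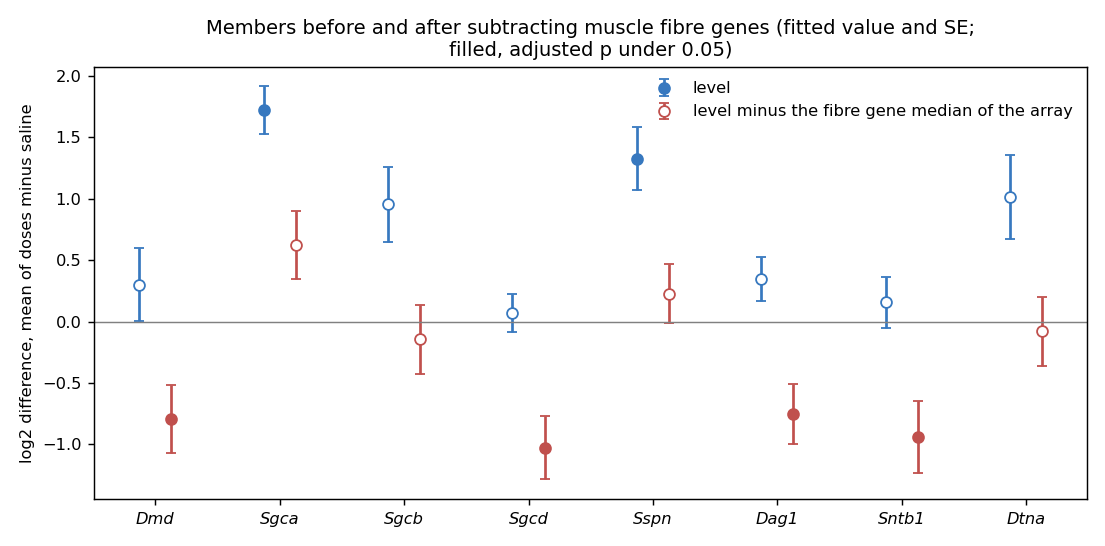
Difference of each member (x axis) between the mean of the doses and saline (y axis, log2 units, fitted value with bars of 1 standard error), as a level in blue and after subtracting the median of 26 fibre genes of the same array in red, filled where the adjusted p is under 0.05. Sgca goes from 1.72 to 0.62 and Sspn from 1.33 to 0.23, while Dmd, Sgcd, Dag1 and Sntb1 go from between 0.070 and 0.34 to between -1.03 and -0.75.

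Other genes of the complex and its partners were read as a list. Of 10 with a probe set, 8 passed the level filter, and Sntg1 and Sntg2 lay below it. Over the doses 3 of the 8 rose and none fell, with a median of 0.63, beside 10.2% of all genes that passed in either direction and a median of 0.066. Dysf, the membrane repair protein dysferlin, read 51.0 and 44.5 in saline and 80.0 to 137 with nicotine, and rose by 1.17 ± 0.17 (limma adjusted p 0.0120). Its call held in all 18 alternatives. The count of 3 became 1 without saline replicate 2, nicotine 1.5 replicate 2, either array of 3.0 or 4.5 replicate 2, and 2 without 4.5 replicate 1.

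Cav3, the muscle caveolin, read 459 and 217 in saline and 639 to 1217 with nicotine, and rose by 1.44 ± 0.33 (limma adjusted p 0.0408). Nos1, the nitric oxide synthase that docks on the complex, rose by 0.84 ± 0.20 (0.0423). Both calls were lost under several alternatives: Cav3 passed in 9 of 18, with 0.91 and an adjusted p of 0.155 without saline replicate 2, and Nos1 in 7 of 18, with 0.134 without that array. Sgce, epsilon-sarcoglycan, differed by 0.51 ± 0.13 (0.0570) and Utrn, the dystrophin relative utrophin, by 0.76 ± 0.31 (0.149). Drp2, Dtnb and Sntb2 differed by -0.41 ± 0.33, -0.11 ± 0.18 and 0.086 ± 0.17, and none of these 5 passed.

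Of 13 enzymes that build the sugar chain by which dystroglycan binds laminin, or supply its making, 1 rose and none fell, with a median of 0.18. This share is near the 10.2% of all genes that passed, and 9 of the 13 were positive. The gene that rose was Dolk, a dolichol kinase, at 0.78 ± 0.15 (limma adjusted p 0.0283), which passed in 10 of 18 alternatives and missed without either saline array (0.0795 and 0.0780). Gmppb lay between -1.19 and -0.59 under the 18 alternatives and passed as lower in 3 of them. Of 16 matrix genes that dystroglycan or its neighbours hold, 2 rose, also a share near that of all genes, and 16 were positive, beside 55.9% of all genes, with a median of 0.52. These were Lama4 at 1.25 ± 0.28 (0.0391) and Lamb2 at 0.79 ± 0.18 (0.0424), laminin chains that passed in 9 and 6 of 18 alternatives. Without saline replicate 2 their adjusted p was 0.155 and 0.112. The count of 2 became 5 without saline replicate 1, 1 without 4.5 replicate 2, and 0 without saline replicate 2, nicotine 1.5 replicate 2, either array of 3.0 or 4.5 replicate 1. The enzyme count of 1 became 0 without either saline array, either array of 3.0 or 4.5 replicate 1, and 2 without nicotine 1.5 replicate 1. Lama2, the laminin chain of the muscle basement membrane, differed by 1.05 ± 0.29 (0.0626).

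Of 22 genes of the costamere, the band that ties the fibre's contractile lattice to the membrane, 6 rose and none fell, with a median of 0.42. For this and the muscle lists that follow, 10.2% of all genes passed, with 646 higher and 734 lower of 13586. Itga7, the muscle laminin receptor of the integrin family, read 68.9 and 55.5 in saline and 130 to 181 with nicotine, and rose by 1.25 ± 0.15 (limma adjusted p 0.00627). Of 26 fibre genes 11 rose and all 26 were positive, with a median of 0.87, Ryr1 and Cacna1s among them at 1.62 ± 0.18 and 1.61 ± 0.18. Of 10 genes of muscle precursors and fusion 4 rose, with a median of 1.26, led by Mymk, the fusion protein myomaker, at 1.86 ± 0.16 (0.00153), and Cdh15, M-cadherin, at 1.21 ± 0.14 (0.00627). Itga7, Ryr1, Cacna1s, Mymk and Cdh15 passed in all 18 alternatives. Without saline replicate 2 the counts were 2 costamere and 4 fibre genes, and without saline replicate 1 they were 9 and 17, with 7 precursor genes. Either array of 3.0 left out gave 1, 4 and 2. The costamere count was also 1 without nicotine 1.5 replicate 2 or either array of 4.5, and the fibre count was 7 without 4.5 replicate 1. Of 10 smooth muscle genes 2 fell, with a median of -1.30 over the list, while 2 of the 10 were positive, Synpo2 among them. Cnn1, a calponin, differed by -2.92 ± 0.58 and Mylk, the myosin light chain kinase, by -1.77 ± 0.38 (0.0292 and 0.0349). Both calls were lost without saline replicate 1 (-1.98 and -1.17, adjusted p 0.0848 and 0.107) and without any 1 array of 3.0 or 4.5 mg/kg/day. Of 7 Schwann cell genes, cells that also carry dystroglycan, none passed in limma, and 1 passed without saline replicate 1 or without nicotine 1.5 replicate 2.

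The genes whose levels followed each member most closely over the 8 arrays are given by Pearson's r as a description, across arrays that share tissue content. Sgca was nearest to Bin1 (0.996), St6galnac4 (0.993) and Nf2 (0.991). Sspn was nearest to Cox6a2 (0.989), Casq1 and Adamtsl3 (0.987 each). Sgcb was nearest to Rab40b (0.996), Srl (0.988) and Synpo2 (0.987). Cox6a2, Casq1 and Srl are muscle genes, of respiration and calcium storage. Dmd was nearest to Dubr (0.980), Slco5a1 (0.971) and Sv2b (0.954), and Dtna to Pdp1, Il3ra (0.990 each) and Ctla2a (0.989). Dag1 was nearest to Foxn3 (0.976), Nedd4 (0.973) and Egfl8 (0.967). Sntb1 was nearest to Bhlha15 and Map4k5 (0.975 each) and Evx1os (0.946), and Sgcd to Catsper2 (0.965), Kbtbd4 (0.942) and Zfp607b (0.936).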

How the data were processed

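Expression was measured on 8 Affymetrix arrays. The authors deposited linear intensity values for 45101 probe sets; their summary method, background step and scaling are not given in the sources used here. Values were taken as log2(intensity + 16) and quantile normalized. Of the probe sets, 34945 named 1 gene in the platform annotation and 34741 matched the reference gene table. The probe set of highest mean stood for a gene, and genes under the 40th percentile of probe sets (log2 level 4.94) were left out. One limma 3.58.1 model (lmFit, eBayes; R 4.3.3) held the 4 group means, with 4 residual degrees of freedom, two-sided, with Benjamini-Hochberg adjustment over all genes tested; an adjusted p under 0.05 passed. The code was tested on simulated data. The members and lists were chosen with earlier results of these data known. All members, their probe sets and the other complex genes read here are named; other lists give up to 4 genes of smallest p, and neighbours are the 3 genes of highest r. Alternatives covered the added constant, normalization, filter, probe set rule, array weights, variance trend, replicate block and left-out arrays. No column of values was left unused (0).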

Additional observations from a re-analysis of the deposited data

How the results depend on the processing

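Sgca kept its call over the doses together, at 4.5 mg/kg/day and in the slope under all 18 alternatives, at 1.60 to 1.94 over the doses (limma adjusted p 0.00456 to 0.0264), and Sspn in 12 of 18 (0.81 to 1.78, adjusted p 0.00854 to 0.0856). With arrays centred on their medians, or with the mean of a gene's probe sets, 2 members passed at 3.0, at 4.5 and in the slope. With the level filter at the 60th percentile 2 passed at 4.5 and in the slope. With array weights 0 passed at 1.5 and 2 at 3.0. With both arrays highest in liver genes left out, 1 member passed over the doses, 0 at 1.5, 2 in the slope, and 1 probe set over the doses. The count relative to fibre genes was 2 with the fibre mean, Sgcd lower and Sgca higher, and 0 with the shorter fibre list. Over all 18 alternatives 1 to 3 members passed over the doses, 0 to 3 at 1.5 and at 3.0, and 1 to 3 at 4.5 and in the slope. Calls over all genes ranged from 349 to 1542 over the doses, 96 to 961 at 1.5 and 50 to 1046 at 3.0. They ranged from 152 to 1431 at 4.5 and 171 to 1812 in the slope. A change in the member count between settings is therefore not read as a result about the members. The probe set count was 1 to 6 over 17 alternatives, and the count relative to fibre genes 0 to 5 over 20, in either direction. The cause of these changes was not tested. Sgca at 1.5 had a limma adjusted p of 0.0565 with the replicate block, and 0 members then passed at 1.5. The deviations of same-numbered arrays from their group means correlated at -0.22 to 0.33 over genes. Whether same-numbered samples were paired was not found in the labels. These correlations cannot decide it, since arrays can also share tissue content. Over all genes the replicate block gave 849 calls over the doses, 157 at 1.5, 278 at 3.0, 522 at 4.5 and 498 for the slope, and array weights gave 618, 130, 716, 441 and 488; an added constant of 1 gave 157 at 1.5.

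The signs that turned were of values that did not pass in the fit as reported, though some, such as Dtna at 1.5 (0.74), Dmd at 3.0 and 4.5 (0.41 and 0.44) and Drp2 (-0.41), were not near zero. With values as deposited, Sgcd over the doses was -0.0071, Dmd and Sntb1 at 1.5 were -0.056 and -0.041, Sntb1 at 4.5 was -0.0096 and Sntb2 was -0.031; that scaling moved the median of all genes by -0.13 at 4.5. With median-centred arrays Dmd and Sntb1 at 1.5 were -0.037 and -0.022. With the mean of a gene's probe sets, Sntb1 at 1.5 was -0.00026, Drp2 was 0.12, Sntb2 -0.17, Synpo2 -0.12 (1.17 in the fit as reported, passing in 2 of 18) and Sspn relative to fibre genes -0.24. With both arrays highest in liver genes left out, Dmd was -0.17 over the doses and -0.46, -0.045 and -0.019 at the 3 doses, Sgcd was -0.0029 over the doses, Dtna at 1.5 -0.10, Dtnb 0.15, Sntb2 -0.074 and Sspn relative to fibre genes -0.0080. Relative to fibre genes, Dtna was 0.10 with an added constant of 1, 0.093 with the fibre mean and 0.19 with the shorter list, and Sgcb was 0.030 and 0.13 with these fibre choices.

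With 1 array left out, Dmd ranged from -0.16 to 0.76 over the doses, -0.41 to 0.51 at 1.5, -0.045 to 0.87 at 3.0 and -0.019 to 0.90 at 4.5. Sgcd ranged from -0.016 to 0.16 over the doses, -0.0044 to 0.17 at 1.5, -0.26 to 0.058 at 4.5 and -0.043 to 0.022 in the slope. Sntb1 ranged from -0.041 to 0.20 at 1.5, -0.21 to 0.48 at 4.5 and -0.031 to 0.11 in the slope. Dtnb ranged from -0.39 to 0.16 and Sntb2 from -0.075 to 0.25. Relative to fibre genes, Sgcb ranged from -0.51 to 0.23, Dtna from -0.32 to 0.16 and Sspn from -0.013 to 0.47. The 2 arrays a group limit the precision of every value, and Sgcd, near the level filter, is limited by signal over background.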
